A study of Mus musculus with 8 samples.

Results

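Alk, the gene for the receptor tyrosine kinase ALK (anaplastic lymphoma kinase), was followed through single-nucleus RNA sequencing of central cross-sections of kidneys from 8 male mice. It is 1 of the 32285 genes in the deposited count matrices (ENSMUSG00000055471) and was taken as the row that carries this symbol. Alk was chosen from these same data for its change by time point and genotype. Its levels, differences and cell classes are therefore given as a description, with standard errors and without a test, and tests are kept for genes that played no part in the choice.

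The 4 groups held 2 mice each, with 1 library per mouse. Control mice (Ctrl, Bmal1lox/lox) and littermates that also carried Pax8-rtTA and LC-1 (cKOt, Bmal1lox/lox/Pax8-rtTA/LC-1) were taken at zeitgeber time 4 (ZT4, 4 h after lights on, in the inactive phase of mice) or at ZT16 (16 h after lights on, in the active phase). All of them, Ctrl included, carried floxed alleles of Bmal1, the core clock gene listed in the files as Arntl, on a C57BL/6J background, and all drank 2 mg/ml doxycycline with 20 mg/ml sucrose for 2 weeks from 8 weeks of age, before harvest at 14 weeks. In cKOt mice doxycycline switches on Cre through an activator that the Pax8 promoter drives in renal tubules, so the design aims the deletion at tubule cells and not at vascular, stromal or immune cells. Light schedules were shifted so that both time points were collected at the same hour of the day. Nothing in the labels ties a library of a group to a library of another group.

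The libraries held 36548873 to 54500820 unique molecular identifiers (UMIs, single captured RNA molecules) in 8758 to 10975 nuclei after filtering, with medians of 3003.5 to 4830 UMIs per nucleus. A doublet caller marked 4367 of 81391 nuclei (5.37%), which were kept in the main values. Pairs of libraries shared 18 to 42 cell barcodes. Over all nuclei Arntl stood at 39.2 and 33.1 CPM (a gene's UMIs per 1000000 UMIs of nuclear-encoded protein-coding genes) in Ctrl ZT4, 160.4 and 157 in Ctrl ZT16, 288 and 203 in cKOt ZT4 and 294 and 258 in cKOt ZT16. All cKOt libraries were thus above the Ctrl libraries of the same time point. These counts cover the whole gene and cannot show the loss of an exon, so they do not check the genotype labels. The study's methods describe a separate PCR check of the deletion on kidney tissue, which was not analysed here.

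ALK belongs to the insulin receptor superfamily of tyrosine kinases and is best known from the developing nervous system, and from the fusions and mutations that activate it in lymphoma, lung cancer and neuroblastoma. Its ligands are ALKAL1 and ALKAL2, its nearest relative is LTK, and the heparin-binding growth factors pleiotrophin and midkine have been proposed as further ligands. The activated receptor recruits adaptors of the SHC, FRS and IRS families and feeds the RAS-MAPK and PI3K-AKT pathways. In the kidney, the proximal tubule, with a convoluted part (PCT) and a straight part (PST), takes back most of the filtered solutes and secretes organic acids and drugs.

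Alk lies on chromosome 17 from 71868988 to 72604702 on the minus strand (RefSeq, GRCm38.p6), 735715 bases in all. In the GENCODE annotation of the later build GRCm39 its canonical transcript has 29 exons that add up to 7221 bases, introns make up 99.0% of the 736623 bases it spans, and the longest intron alone has 222866 bases. Nuclear RNA is rich in unspliced transcripts, and whether the counting included introns was not given in the sources used here, so levels are compared below between samples and cell classes and never between Alk and shorter genes. An annotated lncRNA (Gm41613) and a pseudogene (Gm19183) lie inside Alk and were not analysed here.

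The promoter is shown because time of day and the clock genotype are the variables of the study, and clock factors bind short DNA motifs. The RefSeq table of promoters for GRCm38.p6 (250 bases before and 50 bases after the start of the transcript, in capitals) gives for Alk, minus strand, chr17:72604258-72604557:
Alk promoter: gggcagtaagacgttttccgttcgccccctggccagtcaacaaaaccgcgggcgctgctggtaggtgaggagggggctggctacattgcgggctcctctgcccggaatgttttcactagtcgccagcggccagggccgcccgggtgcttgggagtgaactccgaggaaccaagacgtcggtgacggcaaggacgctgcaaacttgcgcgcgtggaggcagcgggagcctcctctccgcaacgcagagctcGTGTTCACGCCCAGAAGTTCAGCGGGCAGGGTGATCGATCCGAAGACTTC

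The start used by this table lies 395 bases inside the end of the gene given above, so the whole window falls within the annotated span of Alk and a start at the outer end would have another promoter, not searched here. This window has 64% G and C and 28 CpG pairs, against medians of 52.7% and 7 over 32851 promoters of the same length. More CpG pairs than in Alk were found in 12.9% of promoters. On both strands it held no canonical E-box (CACGTG, the letters bound by BMAL1 with its partners, found in 7.15% of all promoters), no D-box (TTANGTAA, 2.32%) and no RORE core (AGGTCA, 16.3%). None of the 3 motifs contains another, although their ends can share letters (the last letters of AGGTCA can begin CACGTG). Their absence here says nothing about the rest of the 735715 bases or about any factor.

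Over all nuclei, Alk was higher at ZT4 than at ZT16 in both genotypes, and the gap between these time points was smaller in cKOt. Ctrl libraries at ZT4 held 3435 and 4366 Alk UMIs, or 114 and 105 CPM, and Ctrl libraries at ZT16 held 687 and 684 UMIs, or 15.2 and 18.5 CPM. The cKOt libraries held 2599 and 3083 UMIs at ZT4, or 73.2 and 74.2 CPM, and 1165 and 1264 UMIs at ZT16, or 27.2 and 32.3 CPM. None of the 4 groups overlapped another: both cKOt groups lay between the Ctrl groups, the ZT4 pair below Ctrl ZT4 and the ZT16 pair above Ctrl ZT16.

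As means ± SD (n = 2 in each group), Alk stood at 109.6 ± 6.35 CPM in Ctrl ZT4, 16.8 ± 2.34 in Ctrl ZT16, 73.7 ± 0.721 in cKOt ZT4 and 29.8 ± 3.64 in cKOt ZT16. From ZT4 to ZT16 the fitted log2 difference was -2.70 ± 0.16 (SE) in Ctrl, a 6.51-fold lower level, and -1.29 ± 0.15 in cKOt, a 2.45-fold lower level. Relative to Ctrl, cKOt was at -0.54 ± 0.15 on the log2 scale at ZT4 (1.45-fold lower) and at 0.87 ± 0.15 at ZT16 (1.83-fold higher). The difference between the time differences of the genotypes was 1.41 ± 0.22. The contrasts share groups, so these values are not independent of one another, and each rests on 2 mice per group.

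**Figure D1:**
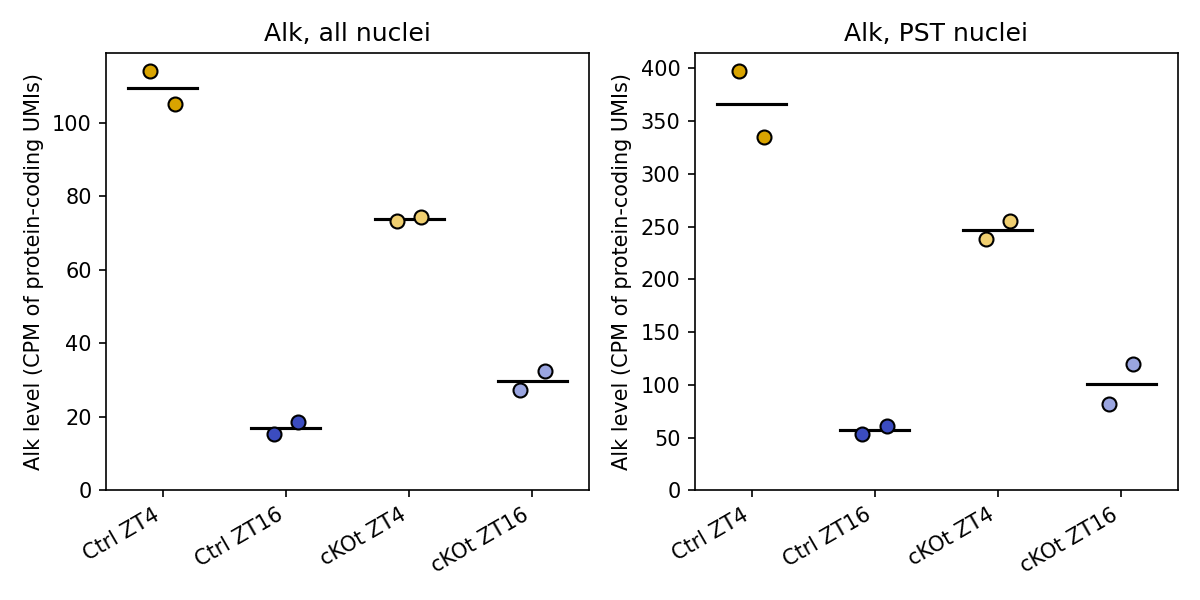
Alk level in CPM for all nuclei (left) and PST nuclei (right), with 1 point per library and a line at the mean of each group. In both panels the Ctrl ZT4 libraries are highest (105 and 114 CPM in all nuclei), the Ctrl ZT16 libraries are lowest (15.2 and 18.5) and both cKOt groups lie between them.

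To see which cells held these molecules, nuclei were clustered and clusters were named from marker genes. In this way 79665 nuclei (97.9%) fell into 20 classes, and 1726 stayed unnamed. No class was named from the marker lists of DCT1 (a part of the distal convoluted tubule) or of T and natural killer cells. Among classes with at least 10 nuclei in every library, the PST-like class had the highest Alk level. It is made of 3 clusters: 1 with all 6 PST markers (the transporters Slc7a13, Slc22a30, Slc27a2 and Slc1a1, the flippase Atp11a and the sterol hydroxylase Cyp7b1) and 2 with all of them but Cyp7b1. With 11604 nuclei, 14.3% of all, it held 14455 of the 17283 Alk UMIs (83.6%), and its part ranged from 80.6% to 87.5% over the libraries. The PCT-like class (14583 nuclei) held another 1508 UMIs (8.73%), so that PST and PCT together held 92.4% of Alk. The split between PST and PCT depends on the clustering: with 50 principal components PST held 70.02% of the Alk UMIs. The other 18 classes, with 65.7% of the nuclei, held 953 UMIs (5.51%), and the unnamed nuclei held 367 (2.12%).

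Within PST, Alk stood at 397 and 335 CPM in Ctrl ZT4 and at 53.8 and 60.9 CPM in Ctrl ZT16. In cKOt it stood at 238 and 256 CPM at ZT4 and at 81.4 and 119.8 CPM at ZT16. The order of the groups was that over all nuclei, again with no overlap, and the libraries of cKOt ZT16 lay farthest apart in proportion to their mean. Means were 366 ± 44.2, 57.3 ± 5.03, 247 ± 12.6 and 101 ± 27.1 CPM (SD, n = 2) for Ctrl ZT4 and ZT16 and cKOt ZT4 and ZT16. The log2 difference from ZT4 to ZT16 was -2.69 ± 0.23 in Ctrl (6.44-fold lower) and -1.29 ± 0.22 in cKOt (2.44-fold lower), and that of cKOt from Ctrl was -0.57 ± 0.22 at ZT4 and 0.83 ± 0.22 at ZT16. The differences over all nuclei were thus of a similar size within the class that holds most of the gene. PST nuclei made up 12.4% to 16.9% of the nuclei of a library.

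The level can also be read nucleus by nucleus. In PST, an Alk UMI was found in 64.8% and 68.5% of nuclei in Ctrl ZT4, 22.2% and 18.6% in Ctrl ZT16, 50.0% and 57.5% in cKOt ZT4 and 31.5% and 32.6% in cKOt ZT16. The 95% Wilson intervals, which cover counting error only, ran from 62.3% to 67.3% for the first of these libraries and from 16.7% to 20.6% for the lowest. At least 3 Alk UMIs were found in 31.6% and 35.3%, 5.07% and 5.25%, 18.2% and 25.3%, and 9.66% and 10.3% of nuclei of the same libraries, and the fullest nucleus of a library held 10 to 27. At ZT4 Alk was therefore spread over most PST nuclei of a Ctrl kidney rather than held by a few of them. When each nucleus was thinned to 1000 UMIs, the mean shares were 23.6%, 4.62%, 16.7% and 6.75% in the same order of groups, compared with 66.7%, 20.4%, 53.7% and 32.0% at full depth.

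Free RNA in droplets can give a UMI to a nucleus that does not express a gene, and myeloid nuclei (Myel) were taken as a class that should lack Alk. There, 16 of 563 nuclei had an Alk UMI in Ctrl ZT4 (2.84%), 0 of 450 in Ctrl ZT16, which allows a share of nuclei with an Alk UMI of up to 0.667%, 11 of 418 in cKOt ZT4 (2.63%) and 1 of 365 in cKOt ZT16 (0.274%). The median depth was 1833 UMIs in Myel nuclei and 7288 in PST nuclei. After thinning, Myel stood at 1.67% of nuclei in Ctrl ZT4, against 23.6% in PST, and at 2.10% in cKOt ZT4, against 16.7% in PST. This limit is on nuclei with a UMI at this depth, not on nuclei that hold the RNA, and it too covers counting error only.

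**Figure D2:**
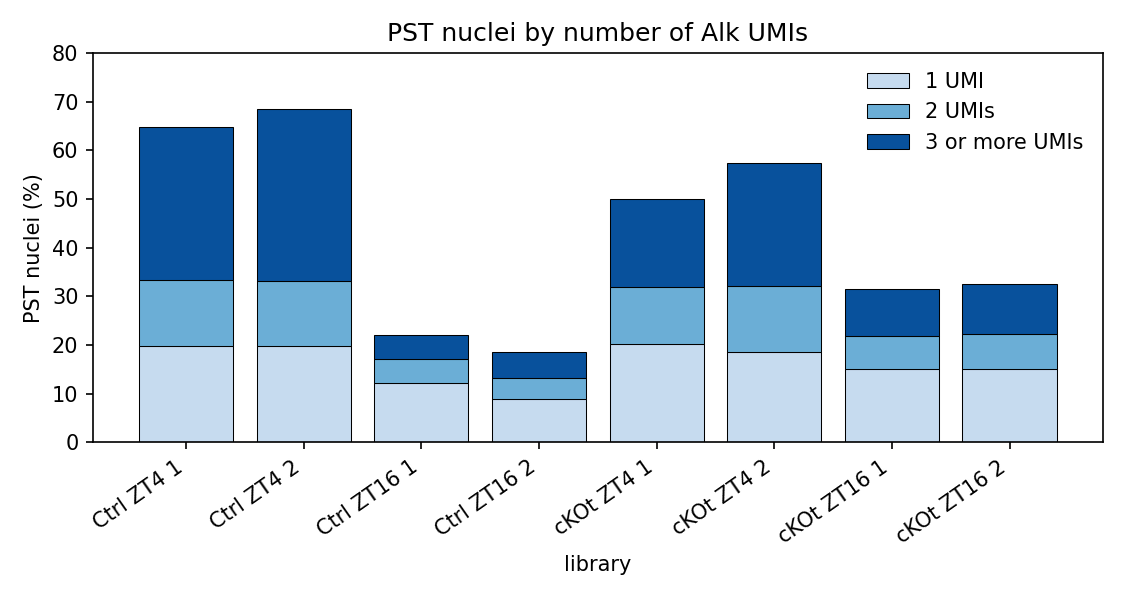
Share of PST nuclei, in percent, that held 1, 2 or at least 3 Alk UMIs, stacked for each of the 8 libraries, so that the top of a bar is the share with any Alk UMI. The bars reach 64.8% and 68.5% in Ctrl ZT4 and 22.2% and 18.6% in Ctrl ZT16, and nuclei with at least 3 UMIs are the largest part only in the Ctrl ZT4 libraries and in cKOt ZT4 replicate 2.

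The 3 PST clusters were not shared evenly by the genotypes, and Alk is therefore also given within each. Cluster 9, which carries all 6 markers, held 26.8% to 36.8% of the PST nuclei of every library. In it Alk stood at 349.6 and 277 CPM in Ctrl ZT4, 49.6 and 66.3 in Ctrl ZT16, 244 and 227 in cKOt ZT4 and 80.8 and 113 in cKOt ZT16. The groups did not overlap within this cluster either. The log2 differences were -2.46 ± 0.26 between time points in Ctrl and -1.28 ± 0.25 in cKOt, and -0.41 ± 0.24 (ZT4) and 0.76 ± 0.25 (ZT16) between genotypes. Cluster 11, led by Synpr, Slco1a1, Vmn1r18 and Cyp4a12a, held 49.9% to 66.2% of PST nuclei in Ctrl libraries and at most 1.33% in cKOt libraries. In its Ctrl nuclei Alk was at 429 and 363 CPM for ZT4, compared with 55.5 and 58.5 CPM for ZT16, a log2 difference of -2.82 ± 0.19. Cluster 4 held 64.6% to 73.2% of PST nuclei in cKOt libraries and 1.89% to 21.8% in Ctrl libraries. In its cKOt nuclei Alk was at 235 and 271 CPM for ZT4, compared with 81.9 and 122 CPM for ZT16, a log2 difference of -1.31 ± 0.25. Since most PST nuclei of Ctrl and of cKOt lay in different clusters, the comparison of genotypes within a shared cluster rests on cluster 9.

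**Figure D3:**
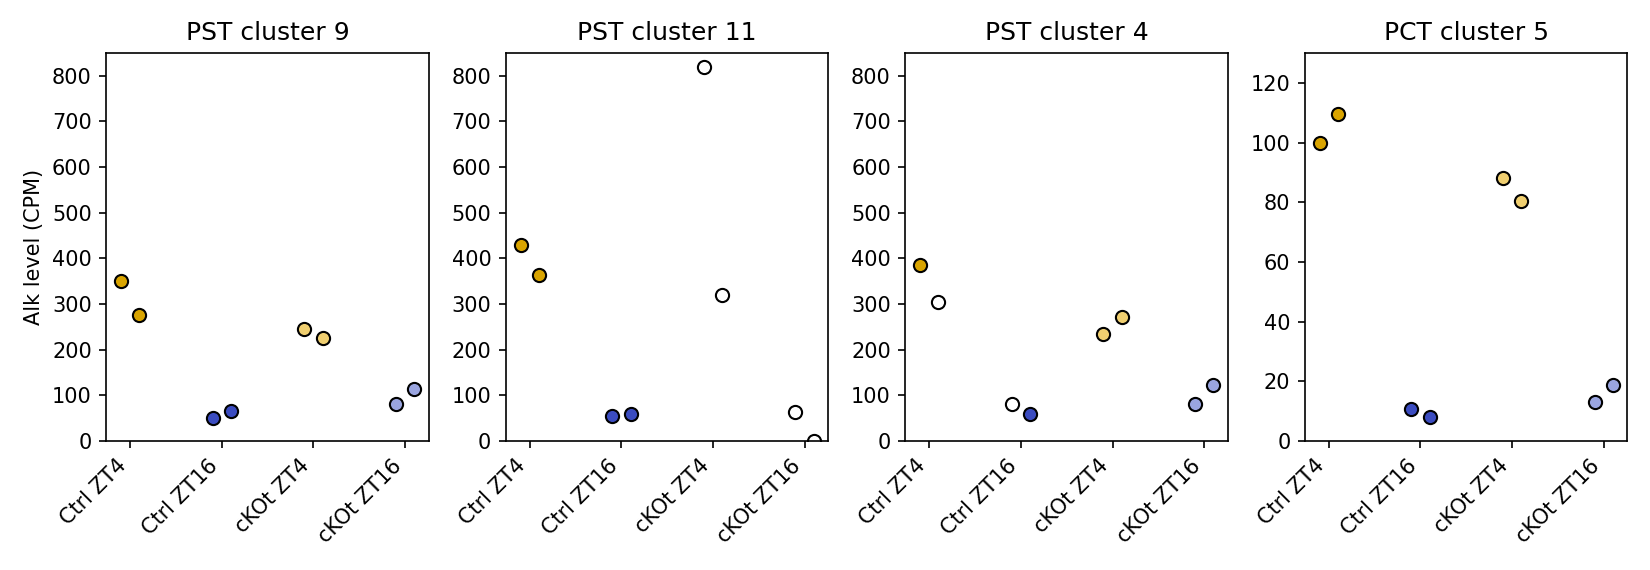
Alk level in CPM, on linear axes of which the last has its own scale, within PST clusters 9, 11 and 4 and PCT cluster 5, with 1 point per library. Filled points are libraries with at least 50 nuclei of the cluster and open points libraries with fewer. In cluster 9 the Ctrl ZT4 libraries (349.6 and 277 CPM) are highest and the Ctrl ZT16 libraries (49.6 and 66.3 CPM) are lowest.

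In PCT the level of Alk was lower than in PST in every library, with a difference between time points of the same direction. PCT nuclei stood at 48.1 and 47.1 CPM in Ctrl ZT4, 6.71 and 4.81 in Ctrl ZT16, 29.6 and 34.99 in cKOt ZT4 and 5.35 and 7.37 in cKOt ZT16. Here the ZT16 libraries of the genotypes overlapped. The log2 difference between time points was -3.02 ± 0.23 in Ctrl and -2.30 ± 0.22 in cKOt, and that of cKOt from Ctrl was -0.58 ± 0.20 at ZT4 and 0.14 ± 0.24 at ZT16. Most of the PCT molecules, 1308 of 1508, came from cluster 5, whose leading genes include the organic anion transporter Slc22a8 and the dicarboxylate transporter Slc13a3. Cluster 5 made up 46.0% and 30.5% of PCT nuclei in the Ctrl ZT16 libraries and 19.5% and 17.4% in the cKOt ZT16 libraries. It stood at 99.9 and 109.7 CPM in Ctrl ZT4, 10.7 and 7.90 in Ctrl ZT16, 88.1 and 80.6 in cKOt ZT4 and 13.1 and 18.8 in cKOt ZT16. Within it the groups did not overlap, and the log2 difference of cKOt from Ctrl was -0.35 ± 0.20 at ZT4 and 0.73 ± 0.26 at ZT16, compared with 0.14 for all PCT nuclei at ZT16. The other PCT clusters, 2 and 7, stood at 4.33 and 5.38 CPM over all libraries, with 111 and 89 UMIs. They were not shared evenly by the groups either. Cluster 7 held 49.3% and 65.6% of PCT nuclei in Ctrl ZT4 and 1.97% and 40.8% in cKOt ZT4. Cluster 2 held 10.6% and 53.4% in Ctrl ZT16 and 74.8% and 77.6% in cKOt ZT16. The differences between genotypes over all PCT nuclei thus compare different mixes of clusters.

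Outside the proximal tubule the levels were low. In Ctrl ZT4 the order of the classes was PST (335 to 397 CPM), podocytes (Podo, 41.3 to 223), PCT (47.1 to 48.1), Myel (21.7 to 27.5), beta-intercalated cells (bIC, 5.44 to 24.7), vascular cells (Vasc, 12.0 to 14.6), mesangial cells and pericytes (Mes/Per, 11.2 to 14.9) and urothelium (UT, 8.52 to 11.9). The order went on with the cortical collecting duct (CCD, 6.29 to 12.2), macula densa (MD, 0 to 17.5) and thin ascending limb (thinAL, 2.37 to 13.9). Then came the thick ascending limb (TAL, 7.35 to 8.32), distal convoluted tubule (DCT2, 5.93 to 9.72) and thin descending limb (thinDL, 2.81 to 10.3). Alpha-intercalated cells (aIC, 1.82 to 9.21), the connecting tubule (CNT, 3.08 to 7.16) and the medullary collecting duct (MCD, 4.47 to 5.21) followed. B cells, adipocytes and smooth muscle with juxtaglomerular cells stood at 0. Without doublets they held 64, 0 and 126 nuclei in Ctrl ZT4, so 0 UMIs does not place them below the other classes. The DCT2 class shared leading genes such as Fgf13 and Adamtsl3 with a cluster named DCT1 at 50 principal components. PST stood above all other classes without overlap, and Myel stood below PCT without overlap. The ranges of Podo and PCT overlapped, as did those of each pair of neighbours from Myel to MCD.

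As group means, the classes outside PST stood at 0 to 6.76 CPM in Ctrl ZT16, where PCT was at 5.76. In cKOt ZT4 the highest of them were B cells (40.5 CPM, from 4 UMIs), Podo (35.9, from 19 UMIs) and PCT (32.3, from 627 UMIs). In cKOt ZT16 adipocytes reached 115.8 CPM in the only library that held them, from 2 UMIs. Next came UT (7.31, from 5 UMIs), Podo (7.11, from 4 UMIs), Vasc (6.68, from 41 UMIs) and PCT (6.36, from 116 UMIs). Values from as few as 2 to 5 UMIs carry no order.

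The second place of Podo rested largely on a single nucleus. In replicate 2 of Ctrl ZT4, 59 of the 71 Podo UMIs lay in 1 nucleus, and 67 of the 71 lay in nuclei marked as doublets. That 1 nucleus held more Alk UMIs than any PST nucleus of the same library (at most 21), and what it was made of was not tested. Without doublets, Podo stood at 20.5 CPM in Ctrl ZT4 with both libraries pooled, below PST and PCT and above the other classes. Myel and bIC moved in the same way, with 11 of the 18 Myel UMIs and 9 of the 15 bIC UMIs of replicate 2 in doublets: their pooled levels went from 25.4 to 13.1 CPM and from 15.5 to 7.49 CPM, so that Myel lay below Vasc (13.8) and Mes/Per (13.2). The places of Podo, Myel and bIC in the order of Ctrl ZT4 thus rested on nuclei marked as doublets. In cKOt ZT4, by contrast, none of the 12 Myel UMIs lay in a doublet, and Myel went from 17.9 to 19.1 CPM without doublets, above Vasc (8.65). In Ctrl ZT4, PST was first with them and without them (373 CPM), and PCT (45.2 CPM) came second only without them.

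Over the 18 classes outside PST and PCT together, Alk stood at 2.08 to 13.5 CPM over the libraries. The log2 difference between time points was -2.34 ± 0.26 in Ctrl and -0.92 ± 0.26 in cKOt, in the same direction as in PST. In each library this pooled level was 2.39% to 4.03% of the level in PST (median 3.69%). For the 6 PST markers the corresponding medians over the libraries were 6.76% (Slc7a13) to 8.42% (Slc1a1), and the values of single libraries ran from 5.73% to 11.3%. The part of RNA released from PST cells in these low levels was not tested.

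**Figure D4:**
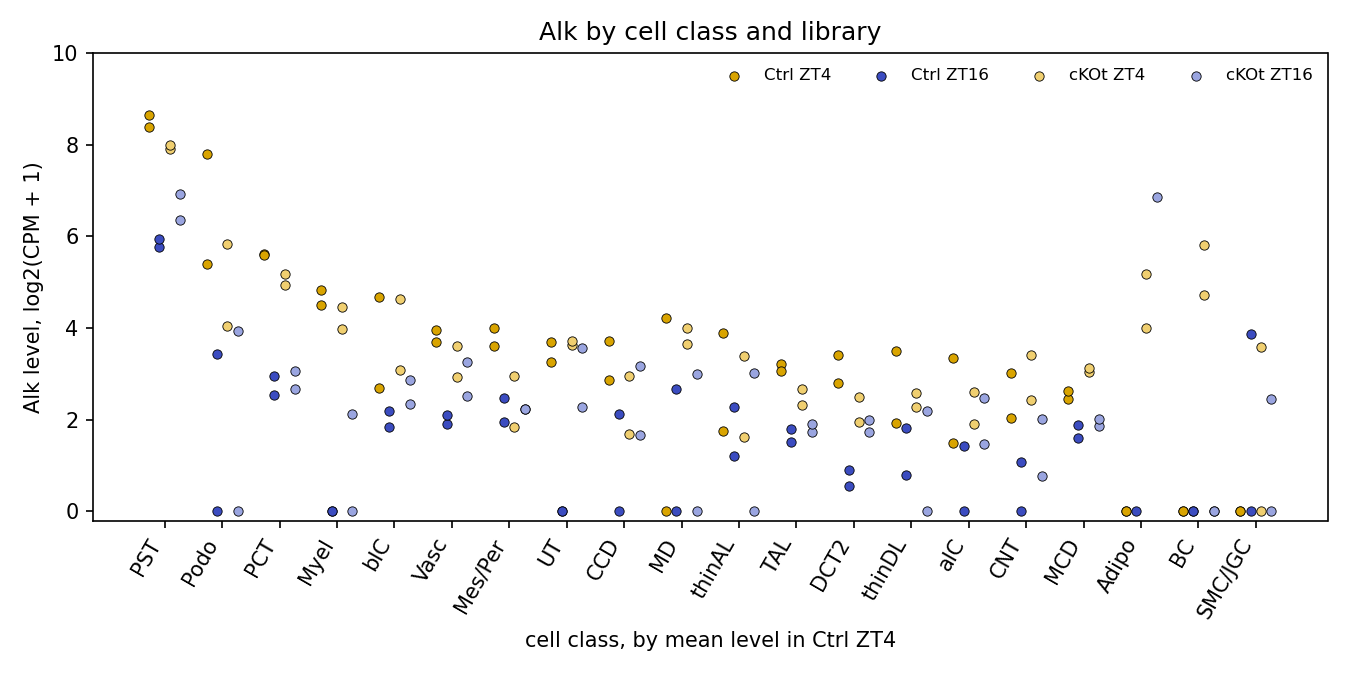
Alk level as log2(CPM + 1) in each library, by cell class in the order of the mean level in Ctrl ZT4 and coloured by group. The PST libraries lie above those of PCT in every group, and the isolated high point of adipocytes in cKOt ZT16 stands for 2 UMIs.

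Genes that act with ALK were examined next, over all nuclei and in PST. The ligands were scarce in these nuclei. Alkal1 had 24 UMIs in all 8 libraries together and was not tested. Alkal2 had 556 UMIs, of which 191 (34.4%) lay in PST nuclei, and its level over all nuclei ranged from 1.13 to 2.52 CPM. Pooled over the libraries it stood at 2.42 CPM in PST and at 1.78 CPM over all nuclei. PST was not its highest class: thinAL (3.36 CPM, from 19 UMIs) and smooth muscle with juxtaglomerular cells (6.27 CPM, from 8 UMIs) were among those above it. Its log2 difference between time points in Ctrl was 0.24 ± 0.32 (adjusted p = 0.861, edgeR quasi-likelihood test, as for all tests below, with Benjamini-Hochberg adjustment over all genes tested). Ltk, the sister receptor, had 295 UMIs, with 110 (37.3%) in TAL nuclei. Its pooled level was 2.99 CPM in TAL and higher, at 4.48 CPM from 43 UMIs, in thinDL. Ltk differed by 0.14 ± 0.33 between time points in Ctrl (adjusted p = 0.930). Neither gene passed the test in any contrast.

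Of the heparin-binding factors, Mdk (midkine) had 1203 UMIs, 392 of them (32.6%) in PCT nuclei. Its pooled level was 5.83 CPM in PCT, and Mes/Per (7.55 CPM) and Vasc (6.35 CPM) were among the classes above it. Mdk differed by 0.34 ± 0.24 between time points in Ctrl (adjusted p = 0.690). Ptn (pleiotrophin) had 3803 UMIs, and 3150 of them (82.8%) lay in PST nuclei, the class that held most Alk UMIs. Its pooled level was 39.97 CPM in PST and 32.1 CPM, from 41 UMIs, in smooth muscle with juxtaglomerular cells. In PST Ptn stood at 25.96 and 32.9 CPM in Ctrl ZT4 and at 98.5 and 45.1 in Ctrl ZT16. In cKOt it stood there at 20.6 and 21.1 CPM at ZT4 and at 40.9 and 25.98 at ZT16. The ZT16 libraries of each genotype were above its ZT4 libraries, the opposite order to Alk, and the Ctrl libraries at ZT16 lay farthest apart. The log2 difference between time points in PST was 1.24 ± 0.32 in Ctrl (adjusted p = 0.284) and 0.67 ± 0.33 in cKOt (adjusted p = 0.882), so neither passed the test with edgeR. DESeq2 on the same counts gave 1.24 ± 0.33 in Ctrl with an adjusted p of 0.0187.

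The wider list of ALK pathway genes holds 61 genes (ligands, other receptors of pleiotrophin and midkine, adaptors, RAS-MAPK and PI3K-AKT proteins, phosphatases and feedback inhibitors, and output transcription factors), of which 60 were tested over all nuclei. edgeR called 0 of them in each of the 4 contrasts and in the interaction of time and genotype. At an unadjusted p under 0.05 there were 6 between time points in Ctrl, 5 between time points in cKOt, 3 between genotypes at ZT4, 5 at ZT16 and 1 in the interaction. Over all genes tested, 9.95%, 8.32%, 8.87%, 6.1% and 4.35% were under this limit in the same order. The medians of the log2 differences were 0.0082, -0.0029, 0.024 and 0.037 for the 4 contrasts, and over all genes tested they lay between -0.01 and 0.01. Over all genes tested edgeR called 0.142% between time points in Ctrl (23 of 16165), 0% between time points in cKOt, 0.446% between genotypes at ZT4, 0.174% at ZT16 and 0.0183% in the interaction.

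DESeq2 called 0 pathway genes between time points in Ctrl and in the interaction, and 1 in each of the other contrasts, where it called 1.02%, 2.16% and 1.06% of all genes, and 1.44% and 0.294% in the first and in the interaction. On counts simulated with the spread that edgeR estimated, 12.8% of the DESeq2 calls were unchanged genes, compared with 4.17% of the edgeR calls. These genes were chosen after their values were seen. Spry1, a feedback inhibitor of receptor tyrosine kinases, was at 0.80 ± 0.19 between time points in cKOt (adjusted p = 0.00397) and at -0.66 ± 0.19 in cKOt relative to Ctrl ZT4 (adjusted p = 0.0274). Lrp2, the endocytic receptor megalin of the proximal tubule, was at 0.86 ± 0.25 in cKOt relative to Ctrl ZT16 (adjusted p = 0.0472). In PST, 55 to 57 pathway genes were tested and edgeR again called 0 in each comparison. At an unadjusted p under 0.05 there were 7, 1, 1 and 5 in the 4 contrasts and 1 in the interaction, and DESeq2 called 1 (Ptn in Ctrl) and then 0 in the others. In PST 9.13%, 5.79%, 8.05%, 8.27% and 3.55% of all genes had an unadjusted p under 0.05, and DESeq2 called 1.05%, 0.272%, 1.62%, 1.6% and 0.0863%.

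Among the 57 other receptor tyrosine kinases, 56 of them tested over all nuclei, edgeR called 0 in each contrast and in the interaction. Unadjusted p-values under 0.05 were found for 7 between time points in Ctrl, 9 between time points in cKOt, 12 between genotypes at ZT4, 6 at ZT16 and 6 in the interaction, of 56 each, to be read against the shares of all genes given above. DESeq2 called 2 (Ephb1 and Ephb2, receptors of ephrins), 1 (Ntrk3, a neurotrophin receptor), 2 (Epha3 and Ntrk3), 1 (Ephb2) and 0 in the same order, all named after their values were seen. In PST, with 46 to 49 receptors tested, edgeR called 0 throughout. There 3, 1, 2 and 6 receptors had an unadjusted p under 0.05 in the 4 contrasts and 2 in the interaction, and DESeq2 called only Igf1r and Csf1r, both in cKOt relative to Ctrl ZT16. In that contrast edgeR called 0.513% and DESeq2 1.6% of all genes in PST, and 8.27% had an unadjusted p under 0.05.

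The clock genes give the reference for time and genotype. Of 16, all tested, edgeR called 7 between time points in Ctrl over all nuclei (0.142% of all genes): 4 were higher at ZT16, among them Npas2, Arntl and Cry1 by 2.10, 2.13 and 2.71 on the log2 scale, and Nr1d1, Nr1d2 and Dbp were lower, at -4.16, -1.88 and -3.49. Alk, at -2.70, was also lower at ZT16, as were the REV-ERB genes Nr1d1 and Nr1d2 and the transcription factor Dbp. Between time points in cKOt edgeR called 0 clock genes, while 4 had an unadjusted p under 0.05 and DESeq2 called 3. Over all genes edgeR also called 0 there, with 1337 genes at an unadjusted p under 0.05 and 164 calls by DESeq2. Nr1d1 was at -3.36 ± 0.34 and Nr1d2 at -1.43 ± 0.16 in cKOt, both with an adjusted p of 0.0692. With the replicate number as a block in edgeR, the adjusted p was 0.0118 for Nr1d1 and 0.04998 for Nr1d2, both under the limit.

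Between genotypes at ZT4, where 0.446% of all genes were called, 7 clock genes were called, 5 higher in cKOt (with Npas2, the partner of BMAL1 in some tissues, at 3.97 ± 0.17 and an adjusted p of 5.94e-05) and 2 lower (Nr1d2 at -1.79 ± 0.16 and Dbp at -2.45 ± 0.30, adjusted p = 0.00260 and 0.0117). At ZT16, where 0.174% of all genes were called, Npas2 was higher (1.88 ± 0.15, adjusted p = 0.00254) and Nr1d2 lower (-1.34 ± 0.16, adjusted p = 0.0232). The Nr1d2 call at ZT16 depended on single libraries, as given further below. In the interaction, where 0.0183% of all genes were called, Npas2 (-2.09 ± 0.21) and Cry1 (-2.45 ± 0.26) were called, each with an adjusted p of 0.0436. Npas2 lost this call when any of the 8 libraries was left out and Cry1 in 7 of the 8 cases, and with the replicate number as a block the adjusted p was 0.0953 for both, whereas DESeq2 gave 8.86e-14 and 1.92e-13. At ZT4 Alk was lower in cKOt, as were Nr1d2 and Dbp, while the 5 other called clock genes were higher. At ZT16 Alk was at 0.87, Npas2 at 1.88 and Nr1d2 at -1.34. Alk was chosen for its differences, so these signs are a description only.

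In PST the background was 0.103% of 13617 genes between time points in Ctrl, 0% in cKOt, 0.65% between genotypes at ZT4, 0.513% at ZT16 and 0% in the interaction. The 0 calls in cKOt stood beside 787 genes at an unadjusted p under 0.05 and 37 calls by DESeq2, and those in the interaction beside 494 and 12. Of the clock genes, edgeR called 6 between time points in Ctrl (4 higher at ZT16, 2 lower), 0 in cKOt, 7 between genotypes at ZT4 (4 higher in cKOt, 3 lower), 2 at ZT16 (1 higher, 1 lower) and 0 in the interaction. DESeq2 called 8, 1, 9, 3 and 5, and 11, 3, 12, 5 and 8 had an unadjusted p under 0.05. Dbp was at -4.21 ± 0.39 between time points in Ctrl in PST (adjusted p = 0.00590) and at -4.55 ± 0.41 in cKOt relative to Ctrl ZT4 (adjusted p = 0.00179). The corresponding log2 differences of Alk in PST were -2.69 and -0.57.

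**Figure D5:**
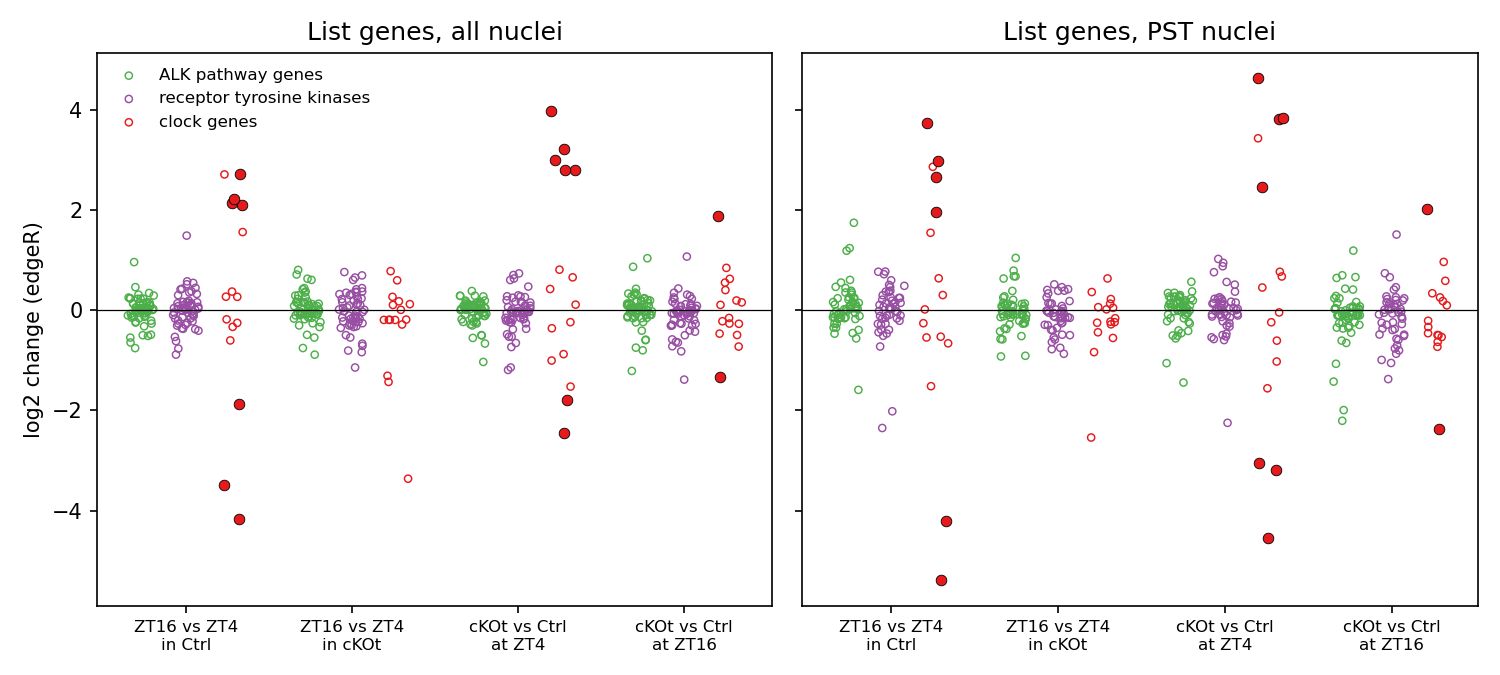
Log2 differences fitted by edgeR for the genes of the 3 lists in the 4 contrasts, in all nuclei (left) and PST nuclei (right), with 1 point per gene. Filled points passed an adjusted p of 0.05 and open points did not. All filled points are clock genes: 7, 0, 7 and 2 on the left and 6, 0, 7 and 2 on the right.

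The neighbours of Alk on chromosome 17 were read for comparison. The nearest on the low-coordinate side is Clip4, 4777 bases away, followed by Pcare and Togaram2, and on the other side are Ypel5 (231925 bases away), Lbh and Lclat1. Pcare had 2 UMIs and was not tested. Clip4 was at -0.46 ± 0.22 (adjusted p = 0.553) and Ypel5 at -0.34 ± 0.25 (adjusted p = 0.697) between time points in Ctrl. edgeR called 0 of the 5 tested neighbours in any of the 4 contrasts over all nuclei and 0 of the 4 tested in PST, and the smallest adjusted p was 0.411 (Lbh in cKOt relative to Ctrl ZT4, -0.37 ± 0.13). Of all genes, edgeR called 0% to 0.446% in these contrasts over all nuclei and 0% to 0.65% in PST, so nothing about the locus is read from these counts.

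The genes whose levels ran most like Alk are given as a description. Over the 8 libraries with all nuclei summed, among 11429 genes with a mean of at least 5 CPM, the highest Pearson r of log2(CPM + 1) were those of the axonemal dynein gene Dnah7b (0.982), Rps6kc1 (0.979), Bcas3 (0.968), Papss2 (0.968), which makes the sulfate donor for sulfation, and Dnah7c (0.967). Dnah7b and Dnah7c are close paralogs that may share reads. Dnah7b stood at 193 and 186 CPM in Ctrl ZT4, 116 and 114 in Ctrl ZT16, 171 and 184 in cKOt ZT4 and 126 and 127 in cKOt ZT16. The order of these values was like that of Alk, over a far narrower span.

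Within PST, among 10117 genes, the closest were the scaffold gene Grip1 (0.982), 2210408I21Rik (0.975), the lipase gene Pnpla7 (0.974), Dnah7b (0.963) and Fam13c (0.960). Grip1 stood at 408 and 328 CPM in Ctrl ZT4, 171 and 202 in Ctrl ZT16, 325 and 331 in cKOt ZT4 and 200.3 and 232 in cKOt ZT16. Over the means of the 20 classes, among 11432 genes, the closest were Vmn1r18 (0.942) and Vmn1r20 (0.930), both listed as vomeronasal receptor genes, C1qtnf3 (0.909), Cntnap5a (0.906) and Gc (0.905), the vitamin D-binding protein. Their highest class was PST as well. These correlations rest on 8 points from 4 groups, or on 20 classes sequenced in the same libraries.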

How the data were processed

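Nuclei from frozen kidneys were sorted on DAPI and sequenced with the 10x Genomics 3′ v3.1 chemistry. Per the labels and methods, the authors used bcl2fastq 2.20, Cell Ranger 7.1.0 with an mm10 reference (the submitters' processing notes also name GRCm39) and Seurat 5. The deposited matrices hold counts of UMIs per gene and barcode, not normalized. The nucleus filter asked for 500 or more genes, 800 or more UMIs and no more than 2% of mitochondrial UMIs, which kept 98.3% of 82784 barcodes. Clusters (1000 principal components holding 80.6% of the variance, Leiden resolution 2.2) were named from at least 3 detected markers, 22 marker lists in all, and doublets (Scrublet) were left out only as an alternative. The leading class was that with the highest mean Alk CPM. Counts were summed per library over protein-coding genes without mitochondrial ones, and genes that reached 5 counts in each replicate of a compared group were tested with edgeR 4.0.16 (TMM, quasi-likelihood, 4 groups in 1 model, Benjamini-Hochberg limit 0.05). DESeq2 1.42.0 was an alternative. SE is the absolute log2 difference over the square root of F. On simulated counts for the Ctrl time contrast (16013 genes), edgeR called 60.6%, 90.8% and 96.9% of genes changed 2-fold, 4-fold and 8-fold. Of its calls 4.17% were unchanged genes (12.8% for DESeq2). The simulated counts took their spread from edgeR's own estimates.

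Groups came from the sample labels, which give 2 libraries per group. The study's methods describe each library as a separate mouse. No pair of replicates agreed within counting noise (chi-square per degree of freedom 35.0 to 61.6), so none was taken as a repeat deposit of the same library. The member and the gene lists were chosen with earlier results of these data known. Named are the ligands and Ltk, list members called by edgeR (at most 6 per list, contrast and direction, and, outside this rule and after their values were seen, members called by DESeq2 alone) except 1 clock gene that is counted but not reported here, the 5 genes most like Alk and its 3 nearest genes on either side. Sequences and positions are from RefSeq (GRCm38.p6), where Alk was matched by symbol (1 gene), and exon structure from GENCODE (GRCm39). Software was R 4.3.3, Python 3.11.15 and scanpy 1.11.5.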

Additional observations from a re-analysis of the deposited data

Results flagged for a closer look

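The difference between time points differed between the genotypes for 2 clock genes, by the interaction of time and genotype over all nuclei (edgeR, adjusted over all genes tested). For Npas2, the time difference in cKOt minus that in Ctrl was -2.09 ± 0.21 on the log2 scale (adjusted p = 0.0436). The time difference was 2.10 in Ctrl, where both libraries at ZT16 were above both at ZT4, and 0.0073 in cKOt. For Cry1, a repressor of the clock, the corresponding value was -2.45 ± 0.26 (adjusted p = 0.0436), with 2.71 in Ctrl and 0.27 in cKOt. The interaction of Alk, at 1.41 ± 0.22, has the opposite sign because Alk fell from ZT4 to ZT16 in Ctrl while Npas2 and Cry1 rose. For Alk, Npas2 and Cry1 alike, the time difference was smaller in cKOt. The value of Alk was used to choose the gene, so it is given without a test. With the replicate number as a block the adjusted p was 0.0953 for both genes, and with DESeq2 it was 8.86e-14 for Npas2 and 1.92e-13 for Cry1. The Npas2 call was kept in 0 of the 8 fits that leave out a library, and the Cry1 call in 1, without cKOt ZT4 replicate 2.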

How the results depend on the processing

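All 140 alternative values of the 8 Alk differences kept their direction, and 122 lay within the spread between replicates of the main value. This count is a description and not a test. Alk was chosen for these differences and its groups did not overlap, so leaving out a library could hardly reverse a sign. Some of the fits leave out a library outside the contrast. The sum of PCT with PST is counted under all nuclei and again under PST. Leaving out each library in turn gave, over all nuclei, -2.90 to -2.52 between time points in Ctrl, -1.45 to -1.16 in cKOt, -0.58 to -0.49 between genotypes at ZT4 and 0.69 to 1.06 at ZT16. In PST the ranges were -2.85 to -2.55, -1.66 to -0.999, -0.65 to -0.47 and 0.47 to 1.12, the last being lowest without cKOt ZT16 replicate 2. Clustering on 50 principal components gave 1.10 for PST at ZT16 between genotypes and put 70.02% of Alk UMIs in PST, compared with 83.4% to 84.3% when a library was left out. In that clustering a cluster named PCT on 3 markers held 1930 Alk UMIs, at 236.5 CPM. Its leading genes Nalcn, Col6a6, Cntnap5a and Dpys also led PST cluster 4 of the main clustering. The split of Alk between PST and PCT thus depends on how such a cluster is named. After seeing the data, 3 sums were added: nuclei outside the proximal tubule gave -2.34 and -0.92 between time points in Ctrl and cKOt, PCT with PST gave -0.69 and 0.68 between genotypes at ZT4 and ZT16, and cluster 9 alone gave -2.46 between time points in Ctrl. Shares of PST nuclei with Alk fell to 23.6%, 4.62%, 16.7% and 6.75% after thinning, by construction.

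List counts moved with the tool. DESeq2 called 1 ALK pathway gene between time points in cKOt, 1 at ZT4 and 1 at ZT16, and 2, 1, 2 and 1 receptor tyrosine kinases in the 4 contrasts, and without a filter there was 1 receptor at ZT4. Clock genes between time points in cKOt came to 3 with DESeq2, 2 without a filter and 2 with the replicate block, and at ZT4 DESeq2 called 11. Leaving out a library gave 0 to 1 receptor at ZT4 (Epha3, without Ctrl ZT4 replicate 1), 0 to 1 clock gene between time points in cKOt and 1 to 2 at ZT16. Of the 18 clock gene calls, interaction included, 10 were kept whichever library was left out. Among those lost, between time points in Ctrl, Arntl was lost without Ctrl ZT4 replicate 2 and Dbp without Ctrl ZT16 replicate 2. At ZT4 Dbp was lost without Ctrl ZT4 replicate 1 and Nfil3 in 5 of 8 fits, and at ZT16 Nr1d2 was lost without either Ctrl ZT16 library or cKOt ZT16 replicate 1. Over all genes and the 4 contrasts edgeR called 23, 0, 72 and 28 genes, DESeq2 233, 164, 349 and 171, edgeR without a filter 51, 10, 127 and 64, and with the replicate block 15, 2, 53 and 30. Leaving out a library gave 8 to 25, 0 to 4, 23 to 70 and 8 to 30, the lowest without Ctrl ZT4 replicate 2 between time points in Ctrl and between genotypes at ZT4, and without Ctrl ZT16 replicate 2 between genotypes at ZT16. The replicate numbers pair nothing in the labels. Over all nuclei, deviations of same-numbered Ctrl and cKOt libraries correlated at 0.28 at ZT4 and 0.29 at ZT16. In PST these values were 0.31 and 0.24. Same-numbered libraries of different time points correlated at -0.19 to 0.13 over all nuclei and at -0.22 to 0.17 in PST. The block takes the same shift for all groups, so it cannot follow a shift that differs between time points. The reason for the higher values within a time point was not tested. Under the block Nfil3 lost its call at ZT4 and Nr1d1 gained one there. Between time points in cKOt, Nr1d1 and Nr1d2 gained calls. The interaction calls were lost, and the other calls of the lists were kept. The cause of these shifts was not tested. With 2 mice per group, changes could be missed. On the simulated counts these were mostly changes near 2-fold. In the data edgeR also left uncalled some larger differences between time points that DESeq2 called. Among them were Nr1d1 in cKOt (-3.37 on the log2 scale with DESeq2) and Nfil3 in Ctrl (2.72 with DESeq2). A count of 0 in a list therefore does not show that none of its genes changed.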
